A study of Mus musculus with 15 samples.

Results

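The genotype difference of the restimulation response was the change of each gene over 2 h of a second interferon exposure in NSD2 KO mouse embryonic fibroblasts minus the same change in WT fibroblasts. It rests on 8 of the 15 libraries of the series, 2 in each of 4 groups: NSD2 KO pretreated at 2 h and at 0 h, and WT pretreated at 2 h and at 0 h. The cells were mouse embryonic fibroblasts (MEFs) of the c57bl/6 strain, described as Nsd2(-/-) for KO and Nsd2(+/+) for WT, and the labels name no other allele. The cells of all 8 libraries had met mouse recombinant interferon beta at 100 units/ml for 3 h, were washed and spent 24 h without it. The 0 h libraries were taken then, and the 2 h libraries after a renewed exposure for 2 h. The other 7 libraries came from naive cells, which had no earlier exposure, and serve below for 1 comparison: 1 of KO at 2 h, and 2 each of KO at 0 h, WT at 2 h and WT at 0 h. The labels do not say how the KO was made, nor whether replicates came from separate cultures or embryos, so a p-value reflects how far these libraries spread, and that spread can be technical. The question the design poses is whether cells with and without NSD2 that have met interferon before respond to it alike.

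Interferon beta binds a receptor made of Ifnar1 and Ifnar2 and activates the kinases Jak1 and Tyk2, which phosphorylate STAT proteins. With Irf9 these form the complex ISGF3, which binds interferon-stimulated response elements (ISREs) upstream of antiviral genes. Usp18 and Socs1 are brakes on the receptor, and Stat2, Irf9 and Irf7 are themselves interferon-induced, so that a first exposure can leave components of the pathway raised. NSD2, encoded by the gene listed as Whsc1, is a histone methyltransferase that places dimethylation on lysine 36 of histone H3, a mark of transcribed and intergenic chromatin.

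Each pretreated library held between 26515315 and 44116418 gene counts and between 15247 and 16255 detected genes, and levels are given as CPM, gene counts scaled to a common library total. Rn45s, the ribosomal RNA precursor, and Lars2 together took 18.5% to 29.4% of the counts, with WT 2 h replicate 1 and KO 0 h replicate 2 at the low end. The summed CPM of 12 fibroblast markers lay between 12108 and 13901 in KO and between 13207 and 14107 in WT libraries. Fap, a marker of activated fibroblasts, was at 0 in all 4 WT libraries, and the marker Lum at 0 in WT at 2 h. The single markers were not alike: of 11 tested, 8 were called higher and 3 lower in KO at 2 h (35.6% and 30.7% of all genes). At 0 h 7 were higher and 4 lower (32.8% and 31.8% of all genes). Whsc1 stood at 109 and 109.6 CPM in KO at 2 h, 109 and 111 in KO at 0 h, 145 and 141 in WT at 2 h and 146 and 133 in WT at 0 h. It was lower in KO at both times, and no change at 2 h was called in either genotype. The genotype difference of its response was -0.04 ± 0.065 (log2 ± SE; adjusted p = 0.8113). Counts per gene do not show which exons the reads cover, so this level does not check the deletion, and KO and WT stand for the labels.

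After a second exposure to interferon, KO fibroblasts raised many genes by larger factors than WT fibroblasts did, among them the guanylate-binding protein gene Gbp2, the chemokine gene Cxcl10, the peptide transporter gene Tap1 and the antiviral genes Ifit2 and Rsad2. A few genes of the same pathway rose by smaller factors in KO (Isg15, Usp18, Irf7, Irf9), and others differed by less than the test could call (Ifit1, Ifit3, Stat2, Igtp). Genes that damp the MAP kinase pathway, such as Dusp6 and Spry2, rose by smaller factors in KO, where 13 of 16 were higher at 0 h. Of 13802 genes tested with edgeR's quasi-likelihood test, 1247 (9.03%) were called at a Benjamini-Hochberg adjusted p under 0.05. The difference was positive (a larger rise or a smaller fall in KO) in 901 genes (6.53%) and negative in 346 (2.51%). The negative count was 226 without KO 2 h replicate 2, 229 without WT 2 h replicate 1 and 469 with a stricter filter on low counts. It was at least 2-fold in 188 of the positive and 24 of the negative genes, and its median over all genes was 0.02 on the log2 scale. Without the 2 libraries low in Rn45s and Lars2, 741 genes were called, 561 positive and 180 negative, and 714 of them were among the 1247.

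The libraries were also compared pair by pair. In 1246 of the 1247 called genes, all 4 possible KO differences between a 2 h and a 0 h library lay outside the range of the 4 WT differences. Over all genes tested, 4405 (31.9%) were separated in this way, called or not. The pairs use the same 8 libraries as the calls and share libraries with each other. The separation therefore describes the called genes and adds no independent evidence for them.

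For the restimulation response itself more genes were called in KO, 4346 (31.5%), of which 2475 were higher and 1871 lower at 2 h. In WT 3138 genes (22.7%) were called, 1682 higher and 1456 lower at 2 h. With Rn45s and Lars2 left out of the counts, the WT split was 2141 higher and 1207 lower. It was 1530 and 821 with DESeq2, 1512 and 743 without WT 0 h replicate 1, and 1219 and 912 without WT 2 h replicate 1. Called changes of at least 2-fold were 595 higher and 140 lower in KO, and 273 higher and 112 lower in WT. The KO libraries were deeper, with 28585502 to 44116418 gene counts against 26515315 to 27768215 in WT. The part of depth in these counts of genes was not tested. Most of the 901 positive differences were in genes that rose in KO: 363 rose in both genotypes, 388 rose in KO and were not called in WT, and 35 rose in KO and fell in WT. A further 94 fell in WT and were not called in KO, 9 fell in both and 12 were called in neither. The 346 negative differences were more mixed, with 71 genes rising in both, 91 rising in WT and not called in KO and 119 falling in KO and not called in WT. A further 26 fell in KO and rose in WT, 29 fell in both and 10 were called in neither.

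**Figure D1:**
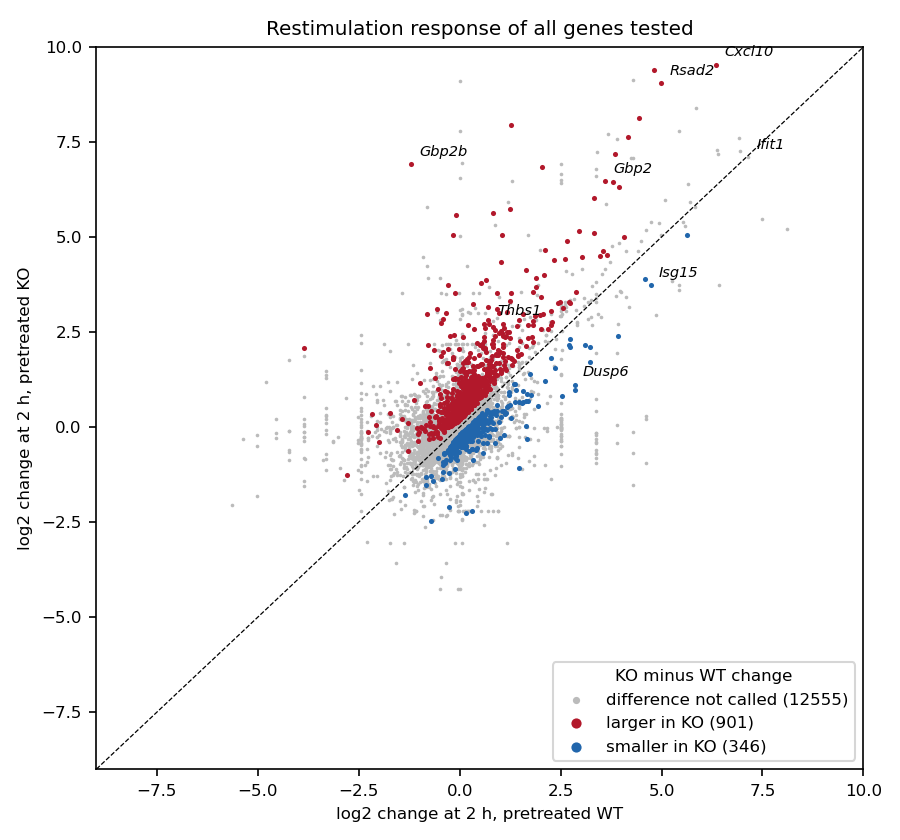
Log2 change at 2 h of restimulation in pretreated KO cells (vertical axis) against that in pretreated WT cells (horizontal axis), 1 point per gene tested. The 901 genes with a larger value in KO (red) lie above the dashed line of equal change and the 346 with a smaller value (blue) below it. Cxcl10, Rsad2 and Gbp2 sit far above the line, Ifit1 on it, and Isg15 and Dusp6 below it.

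The promoters of a few of these genes are shown because the difference ran in different directions in genes that carry the same response element. Each run is the 250 bases upstream of the RefSeq transcription start (build GRCm38.p6), written 5′ to 3′ on the strand of the gene. Capitals mark the ISRE core, searched as GAAANNGAAA on both strands, so that TTTCNNTTTC is its reverse complement.
Ifit1 (chr19:34640639-34640888, plus strand, 2 matches): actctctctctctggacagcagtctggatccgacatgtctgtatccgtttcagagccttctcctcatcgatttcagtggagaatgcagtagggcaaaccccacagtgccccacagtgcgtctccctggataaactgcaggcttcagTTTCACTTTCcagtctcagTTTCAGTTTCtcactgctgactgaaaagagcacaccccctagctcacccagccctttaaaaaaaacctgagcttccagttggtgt
Isg15 (chr4:156200819-156201068, minus strand, 3 overlapping matches): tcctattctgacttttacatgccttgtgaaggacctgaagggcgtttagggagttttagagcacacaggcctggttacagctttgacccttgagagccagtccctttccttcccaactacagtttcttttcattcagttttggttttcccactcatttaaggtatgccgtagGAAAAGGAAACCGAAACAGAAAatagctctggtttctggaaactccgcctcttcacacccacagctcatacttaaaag
Gbp2 (chr3:142620413-142620662, plus strand, 1 match): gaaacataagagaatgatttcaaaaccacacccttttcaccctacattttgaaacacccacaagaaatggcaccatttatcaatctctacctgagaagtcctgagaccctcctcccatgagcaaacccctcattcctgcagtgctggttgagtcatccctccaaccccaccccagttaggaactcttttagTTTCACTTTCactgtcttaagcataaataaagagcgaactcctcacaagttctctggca
Cxcl10 (chr5:92348890-92349139, minus strand, 1 match): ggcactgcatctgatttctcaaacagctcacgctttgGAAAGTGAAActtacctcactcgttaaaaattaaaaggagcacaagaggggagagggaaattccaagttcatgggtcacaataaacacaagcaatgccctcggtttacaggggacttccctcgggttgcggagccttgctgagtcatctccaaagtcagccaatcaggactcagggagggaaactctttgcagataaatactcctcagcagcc
Dusp6 (chr10:99262981-99263230, plus strand, no match): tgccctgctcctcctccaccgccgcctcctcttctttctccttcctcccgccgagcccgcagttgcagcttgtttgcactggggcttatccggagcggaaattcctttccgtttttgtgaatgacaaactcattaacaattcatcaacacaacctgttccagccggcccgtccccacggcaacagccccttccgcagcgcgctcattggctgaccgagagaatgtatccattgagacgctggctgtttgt

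Ifit1, whose difference was near 0, Isg15, whose rise was smaller in KO, and Gbp2 and Cxcl10, whose rises were larger in KO, all held the core. Not every gene with a larger rise in KO did. Of 2 whose promoters are not printed, Rsad2 held 1 match and Tap1 held 0. Across the genes tested, 10912 of 13802 had a promoter in the RefSeq table and 342 of these (3.13%) held it in the 250 bases. It was found in 18 of 51 antiviral effector genes with a promoter (35.3%), in all 9 interferon-inducible GTPase genes with one and in 3 of 17 MHC class I genes (17.6%). Of the genes that rose at least 2-fold in both genotypes, it was found in 16 of 68 with a larger rise in KO (23.5%), in 29 of 91 with no call (31.9%) and in 5 of 12 with a smaller rise in KO (41.7%). A match describes these letters in this window and is not a measured binding site.

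The components of the pathway moved in both directions. The list of interferon receptors, JAK, STAT, IRF and SOCS genes had 26 members tested, of which 7 had a larger change in KO (against 6.53% of all genes) and 2 a smaller one (against 2.51%), with a median of 0.15. Neither receptor gene was called: Ifnar1, a receptor chain, had a difference of 0.16 ± 0.070 and Ifnar2, the other chain, one of 0.29 ± 0.11 (adjusted p = 0.2094 and 0.1210). The KO level was called higher for 22 of the 26 members at 2 h and for 20 at 0 h. Over all genes, 66.3% differed between genotypes at 2 h (35.6% higher in KO) and 64.7% at 0 h (32.8% higher in KO).

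Irf9, the DNA-binding part of ISGF3, stood at 104 and 105 CPM in KO at 2 h, 43.1 and 46.7 in KO at 0 h, 60.4 and 65.8 in WT at 2 h and 13.4 and 15.7 in WT at 0 h. Its KO level was above its WT level at both times, while its rise was 2.33-fold in KO against 4.34-fold in WT. The difference was -0.90 ± 0.096 on the log2 scale (adjusted p = 4.4e-08). Irf7, an interferon-induced factor that drives further interferon genes, was measured at 99.0 and 96.3 CPM in KO at 2 h, 6.24 and 6.92 in KO at 0 h, 35.6 and 34.8 in WT at 2 h and 1.42 and 1.48 in WT at 0 h. It had the same form. The difference was -0.71 ± 0.16 (adjusted p = 0.0037). Irf9 and Irf7 kept their calls in every alternative tried.

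Stat2, a component of ISGF3, stood at 209.7 and 205 CPM in KO at 2 h, 32.6 and 32.0 in KO at 0 h, 119.5 and 107 in WT at 2 h and 15.98 and 14.1 in WT at 0 h. Its KO levels were the higher ones at both times, but the difference of the rise, -0.23 ± 0.093, was not called (adjusted p = 0.1455). It was called without WT 0 h replicate 1, with -0.36 and an adjusted p of 0.0402, and without WT 2 h replicate 2, with -0.31 and an adjusted p of 0.0301. The adjusted p of Stat2 ranged between 0.0301 and 0.5752 over 16 alternatives.

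Irf1, a factor that acts on ISREs and on MHC class I genes, was measured at 237 and 223 CPM in KO at 2 h, 28.6 and 31.2 in KO at 0 h, 106 and 104 in WT at 2 h and 26.0 and 26.9 in WT at 0 h. The 0 h levels lay close together and the 2 h levels apart, and the difference was 0.96 ± 0.079 (adjusted p = 2.7e-10). Socs1, which blocks JAK kinases, stood at 73.8 and 82.7 CPM in KO at 2 h, 5.08 and 4.65 in KO at 0 h, 23.8 and 30.9 in WT at 2 h and 5.90 and 6.88 in WT at 0 h, lower in KO at 0 h and higher in KO at 2 h. Its difference was 1.91 ± 0.17 (adjusted p = 7.2e-10). Jak2, a kinase of interferon gamma and cytokine receptors, had 95.4 and 92.8 CPM in KO at 2 h, 47.7 and 45.7 in KO at 0 h, 46.5 and 49.2 in WT at 2 h and 39.6 and 41.0 in WT at 0 h. It rose 2.02-fold in KO against 1.19-fold in WT. The difference was 0.77 ± 0.076 (adjusted p = 1.0e-08).

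**Figure D2:**
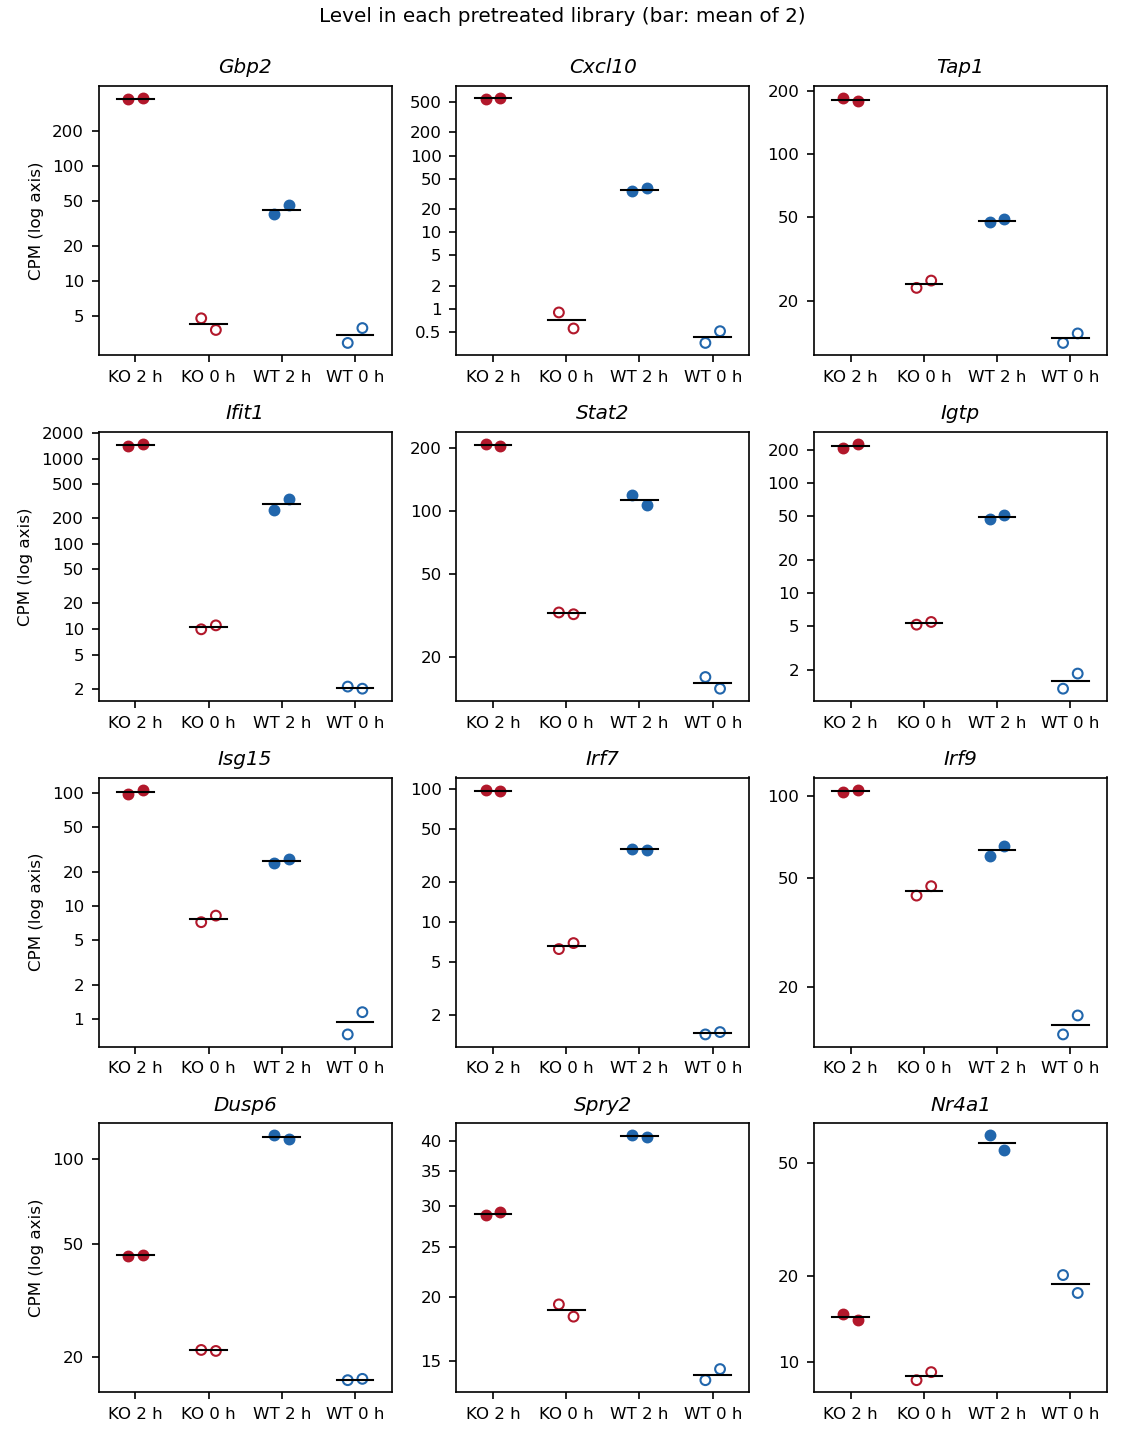
CPM on a log axis in each pretreated library for 12 genes, with KO at 2 h and 0 h (red) left of WT at 2 h and 0 h (blue), filled points for 2 h, open points for 0 h and a bar for the mean of 2 libraries. In the top row (Gbp2, Cxcl10, Tap1) the KO points stand apart from WT mainly at 2 h. In the second row (Ifit1, Stat2, Igtp) KO is higher at both times, and the difference of the rise was not called. In the third row (Isg15, Irf7, Irf9) the gap is wider at 0 h, and in the bottom row (Dusp6, Spry2, Nr4a1) the WT points reach the highest level.

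The list of antiviral effectors holds genes whose products block viral replication, and also regulators such as Usp18, a brake on the receptor. Of 61 tested, 29 had a larger rise in KO (6.53% of all genes) and 2 a smaller one (2.51% of all genes), with a median difference of 0.54. The same shares over all genes stand beside the counts of larger and smaller differences in the lists below. Nearly all of them responded in each genotype: 58 rose at 2 h in KO (17.9% of all genes) and 56 in WT (12.2% of all genes). KO levels were called higher than WT for 57 at 2 h (35.6% of all genes) and for 48 at 0 h (32.8% of all genes), and the same 48 were higher at both times. Their summed CPM was 12952 and 13284 in KO at 2 h and 1547 and 1626 in KO at 0 h, against 3862 and 4055 in WT at 2 h and 1068 and 1121 in WT at 0 h.

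Rsad2 encodes viperin, an enzyme that makes a chain-terminating nucleotide. It was measured at 825 and 857 CPM in KO at 2 h, 1.65 and 1.497 in KO at 0 h, 11.9 and 15.3 in WT at 2 h and 0.473 and 0.370 in WT at 0 h. The KO libraries at 2 h stood far above every other library, and the difference was 4.07 ± 0.47 (adjusted p = 1.5e-07). Cmpk2, its neighbour and a mitochondrial nucleotide kinase, had 350.0 and 353 CPM in KO at 2 h, 4.06 and 4.05 in KO at 0 h, 3.14 and 3.08 in WT at 2 h and 0.255 and 0.185 in WT at 0 h. WT cells at 2 h did not reach the level that KO cells had at 0 h. Its difference was 2.64 ± 0.49 (adjusted p = 3.0e-04), and without WT 0 h replicate 1 it was 2.36 with an adjusted p of 0.0617. For Cmpk2 the adjusted p was between 3.4e-07 and 0.0617 over 16 alternatives.

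Ifit2, which binds viral RNA, stood at 669 and 721 CPM in KO at 2 h, 38.9 and 40.4 in KO at 0 h, 80.1 and 98.4 in WT at 2 h and 29.2 and 28.1 in WT at 0 h. The 0 h levels differed by 1.38-fold and the 2 h levels by 7.80-fold, a difference of the rise of 2.497 ± 0.095 (adjusted p = 1.2e-17). Samhd1, which depletes nucleotides, had 251 and 242 CPM in KO at 2 h, 66.0 and 65.7 in KO at 0 h, 63.4 and 64.1 in WT at 2 h and 46.9 and 44.2 in WT at 0 h. Both KO pairs lay above the WT pairs of the same time, and the difference was 1.42 ± 0.070 (adjusted p = 5.5e-15). Daxx, a histone H3.3 chaperone and constituent of PML bodies, had 306 and 289 CPM in KO at 2 h, 28.0 and 27.2 in KO at 0 h, 112 and 107 in WT at 2 h and 27.4 and 26.4 in WT at 0 h. Its 0 h levels overlapped between genotypes, its KO levels at 2 h were well above those of WT, and the difference was 1.41 ± 0.073 (adjusted p = 1.8e-14). Herc6, the main ISG15 ligase in mouse cells, stood at 72.2 and 77.8 CPM in KO at 2 h, 7.29 and 7.67 in KO at 0 h, 32.3 and 32.6 in WT at 2 h and 13.4 and 13.97 in WT at 0 h. KO was lower at 0 h and higher at 2 h. The difference was 2.08 ± 0.13 (adjusted p = 4.8e-13).

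Ifit1 and Ifit3, the relatives of Ifit2, did not share its pattern. Ifit1 stood at 1387 and 1481 CPM in KO at 2 h, 9.93 and 11.04 in KO at 0 h, 252 and 335 in WT at 2 h and 2.11 and 1.996 in WT at 0 h. KO levels exceeded WT 4.89-fold at 2 h and 5.09-fold at 0 h, and the difference of the rise was -0.06 ± 0.24 (adjusted p = 0.9510). Ifit3 had 721 and 842 CPM in KO at 2 h, 5.16 and 4.87 in KO at 0 h, 92.6 and 127 in WT at 2 h and 1.20 and 1.44 in WT at 0 h, and its difference of 0.91 ± 0.35 was not called (adjusted p = 0.1136). Without WT 2 h replicate 2 it was 1.15 with an adjusted p of 0.0035, and with no filter on low counts the adjusted p was 2.5e-04. Over 16 alternatives the adjusted p of Ifit3 lay between 2.5e-04 and 0.4184. The 2 WT libraries at 2 h were the most spread of its 4 pairs as a ratio, though not in CPM. Ifit3 has a near-identical copy, so its reads may be split. Mx1 and Mx2 belong to a family of dynamin-like GTPase genes whose products can trap viral particles. RNA levels do not show whether these c57bl/6 cells make a working Mx protein. Mx1 had 213 and 224 CPM in KO at 2 h, 0.482 and 0.811 in KO at 0 h, 5.57 and 10.1 in WT at 2 h and 0.218 and 0.0370 in WT at 0 h. Mx2 had 133 and 133 CPM in KO at 2 h, 1.93 and 2.34 in KO at 0 h, 17.0 and 18.0 in WT at 2 h and 0.328 and 0.702 in WT at 0 h. KO exceeded WT in every 2 h library of both, and the differences of 2.55 ± 1.02 and 0.89 ± 0.33 were not called (adjusted p = 0.1374 and 0.1008). WT 0 h replicate 2 of Mx1 and replicate 1 of Mx2 are the lowest of their pairs at low counts. DESeq2 called the Mx1 difference (2.49, adjusted p = 0.0014), and without WT 2 h replicate 2 it was 3.01 with an adjusted p of 0.0080. Without WT 0 h replicate 1 the Mx2 difference was 1.30 with an adjusted p of 0.0305. The adjusted p of Mx1 ranged between 0.0014 and 0.9281 over 16 alternatives. For Mx2 the adjusted p was between 0.0305 and 0.8794 over 16 alternatives.

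Isg15 is a ubiquitin-like protein joined to other proteins, and Usp18 removes it and blocks the receptor. These were the 2 of 61 tested members of the antiviral list with a smaller rise in KO, near the share over all genes (2.51%). Isg15 stood at 97.8 and 107 CPM in KO at 2 h, 7.18 and 8.20 in KO at 0 h, 24.0 and 26.0 in WT at 2 h and 0.728 and 1.15 in WT at 0 h. Usp18 had 495 and 506 CPM in KO at 2 h, 13.8 and 16.4 in KO at 0 h, 152 and 166 in WT at 2 h and 3.06 and 3.36 in WT at 0 h. KO libraries were higher at both times, by wider factors at 0 h. The difference was -0.996 ± 0.22 for Isg15 (adjusted p = 0.0020) and -0.58 ± 0.14 for Usp18 (adjusted p = 0.0077). Without WT 0 h replicate 1 neither was called, with -0.74 (adjusted p = 0.1010) for Isg15 and -0.54 (adjusted p = 0.0764) for Usp18. Without KO 0 h replicate 2 the Usp18 difference was -0.45 (adjusted p = 0.0708). Over 16 alternatives the adjusted p of Isg15 lay between 7.9e-05 and 0.1010. The adjusted p of Usp18 ranged between 1.1e-04 and 0.0764 over 16 alternatives.

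The interferon-inducible GTPases, which attack the vacuoles of intracellular parasites and bacteria, are known to respond to interferon in many cell types. Of 17 listed genes, 14 could be tested, 14 rose in KO (17.9% of all genes) and 11 in WT (12.2% of all genes). The median difference of the rise was 0.70, or 0.55 without 4 genes that had 3 or fewer counts in a group. Larger rises in KO were called for 3 members (6.53% of all genes) and smaller ones for none. Gbp2 was measured at 376 and 385 CPM in KO at 2 h, 4.76 and 3.77 in KO at 0 h, 38.0 and 45.4 in WT at 2 h and 2.91 and 3.92 in WT at 0 h. The 0 h libraries of the genotypes lay side by side, the KO libraries at 2 h stood 9.17-fold above WT, and the difference was 2.87 ± 0.19 (adjusted p = 3.6e-12). Gbp3 had 103 and 102 CPM in KO at 2 h, 2.69 and 3.24 in KO at 0 h, 17.5 and 17.9 in WT at 2 h and 1.71 and 1.81 in WT at 0 h. KO stood above WT at 2 h and at 0 h, and the difference was 1.79 ± 0.19 (adjusted p = 5.0e-08). Gbp9 had a difference of 2.07 ± 0.49 (adjusted p = 0.0046), lost without WT 0 h replicate 2 (1.14, adjusted p = 0.4942). For Gbp9 the adjusted p was between 1.5e-04 and 0.4942 over 16 alternatives. Igtp, which encodes the immunity-related GTPase Irgm3, had 212 and 228 CPM in KO at 2 h, 5.16 and 5.46 in KO at 0 h, 47.6 and 51.3 in WT at 2 h and 1.35 and 1.85 in WT at 0 h. KO was higher throughout, and the difference of 0.43 ± 0.19 was not called (adjusted p = 0.2170). Several of these genes have near-identical neighbours, and the strand setting of the counting is not given in the sources used here, so single members are uncertain.

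Sensors of foreign nucleic acid followed, with 9 of 21 called larger in KO, 1 smaller (Mavs, an adaptor, named after its value was seen) and a median of 0.53. DESeq2 called 5 larger. The Mavs call was lost in 7 of 16 alternatives: with DESeq2, without WT 0 h replicate 1, WT 2 h replicate 1, either KO 0 h library or KO 2 h replicate 1, and without both libraries low in Rn45s and Lars2. Tlr3, the receptor for double-stranded RNA in endosomes, stood at 118 and 119 CPM in KO at 2 h, 4.20 and 3.81 in KO at 0 h, 45.9 and 48.6 in WT at 2 h and 7.86 and 7.17 in WT at 0 h. It was lower in KO at 0 h and higher at 2 h. The difference was 2.24 ± 0.12 (adjusted p = 6.7e-14). Ifi205, a member of the p200 DNA-sensor family, had 33.9 and 36.6 CPM in KO at 2 h, 0.284 and 0.187 in KO at 0 h, 14.98 and 18.1 in WT at 2 h and 1.35 and 0.924 in WT at 0 h. Its KO libraries lay above those of WT at 2 h and below those of WT at 0 h, and the difference was 3.33 ± 0.38 (adjusted p = 1.7e-07). Myd88, the adaptor of most Toll-like receptors, had 96.5 and 90.9 CPM in KO at 2 h, 17.1 and 16.3 in KO at 0 h, 37.7 and 39.8 in WT at 2 h and 17.1 and 16.3 in WT at 0 h. Its 0 h levels were alike in both genotypes, and the difference was 1.28 ± 0.098 (adjusted p = 6.8e-11). Mb21d1, which encodes the DNA sensor cGAS, had a difference of 1.32 ± 0.20 (adjusted p = 2.3e-05).

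MHC class I presentation, the display of peptides to T cells, had the largest share of calls among the lists described here in the main fit. Without WT 2 h replicate 2, the share was larger in a set of 20 interferon-stimulated genes followed below. In the main fit 16 of 21 tested class I members were larger in KO (6.53% of all genes) and none smaller, with a median of 0.81. The count was between 12 and 16 across the alternatives tried. In KO 19 members rose and in WT 15. Tap1, which pumps peptides into the endoplasmic reticulum, stood at 185 and 179.6 CPM in KO at 2 h, 23 and 24.9 in KO at 0 h, 47.3 and 49.0 in WT at 2 h and 12.6 and 13.9 in WT at 0 h. The groups did not overlap, and the difference was 1.07 ± 0.090 (adjusted p = 4.8e-10). Psmb10, a catalytic subunit of the immunoproteasome, had 85.2 and 78.5 CPM in KO at 2 h, 14.5 and 14.6 in KO at 0 h, 27.4 and 25.2 in WT at 2 h and 11.98 and 11.5 in WT at 0 h. At both times KO libraries lay above those of WT, and the difference was 1.33 ± 0.10 (adjusted p = 6.8e-11). Tapbp, which bridges Tap1 and class I molecules, had 274 and 255 CPM in KO at 2 h, 83.9 and 89.2 in KO at 0 h, 94.8 and 93.3 in WT at 2 h and 52.4 and 55.3 in WT at 0 h. Both KO pairs lay above the WT pairs of the same time, and the difference was 0.81 ± 0.068 (adjusted p = 4.6e-10). H2-Q4, a class I heavy chain, had 42.2 and 45.5 CPM in KO at 2 h, 7.94 and 8.48 in KO at 0 h, 2.61 and 3.92 in WT at 2 h and 3.24 and 3.88 in WT at 0 h. It rose 5.33-fold in KO and was not called in WT, where it changed 1.11-fold. The difference was 2.56 ± 0.20 (adjusted p = 1.1e-10). Class I heavy chain genes are near-identical and polymorphic, so single H2 genes are uncertain.

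Of 31 chemokine, cytokine and NF-kB target genes tested, 16 were larger in KO and 1 smaller (Cxcl12, named after its value was seen), with a median of 0.74, or 0.56 without 3 genes that had 3 or fewer counts in a group. The Cxcl12 call was lost without both libraries low in Rn45s and Lars2. KO levels were higher in 24 and lower in 4 at 2 h (35.6% and 30.7% of all genes), and higher in 12 and lower in 9 at 0 h (32.8% and 31.8% of all genes). Cxcl10, which attracts activated T cells, stood at 549 and 556 CPM in KO at 2 h, 0.908 and 0.561 in KO at 0 h, 34.3 and 37.8 in WT at 2 h and 0.364 and 0.518 in WT at 0 h. At 0 h it was near 1 CPM or lower in every library, and at 2 h KO exceeded WT 15.4-fold, for a difference of 3.19 ± 0.46 (adjusted p = 7.4e-06). Tnfsf10, the death ligand TRAIL, had 60.8 and 63.9 CPM in KO at 2 h, 0.454 and 0.624 in KO at 0 h, 1.52 and 2.70 in WT at 2 h and 0.437 and 0.555 in WT at 0 h. KO libraries lay above those of WT at 2 h and overlapped those of WT at 0 h, and the difference was 4.81 ± 0.50 (adjusted p = 2.8e-08). Cd274, the checkpoint ligand PD-L1, had 123 and 120.2 CPM in KO at 2 h, 1.87 and 1.15 in KO at 0 h, 26.5 and 29.4 in WT at 2 h and 1.71 and 1.92 in WT at 0 h. Genotypes overlapped at 0 h and stood apart at 2 h. The difference was 2.38 ± 0.23 (adjusted p = 7.1e-09). Nfkbie, an inhibitor of NF-kB that NF-kB induces, had 26.1 and 28.8 CPM in KO at 2 h, 7.69 and 8.02 in KO at 0 h, 6.24 and 5.56 in WT at 2 h and 5.21 and 5.18 in WT at 0 h. The KO pairs were above the WT pairs at each time, and the difference was 1.61 ± 0.16 (adjusted p = 1.1e-08). Ptgs2, the inducible cyclooxygenase, had 581 and 525 CPM in KO at 2 h, 94.3 and 91.9 in KO at 0 h, 674 and 647 in WT at 2 h and 164 and 164 in WT at 0 h. At both times KO libraries lay below those of WT, and the difference was 0.56 ± 0.065 (adjusted p = 2.0e-07). An NF-kB site was found in 9 of 19 promoters of this list (47.4%) and in 593 of 10912 promoters of all genes (5.43%).

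A larger factor and a higher level are separate statements, and the genes induced in both genotypes show both. There were 225 genes that were called higher at 2 h and rose at least 2-fold in each genotype. Of these, 87 rose by a larger factor in KO, 17 by a smaller one and 121 were not called. KO levels were higher in 185 of them at 2 h and in 138 at 0 h, and lower in 22 at 2 h and 31 at 0 h. Among the 121 without a call, 78 had a higher KO level at both times, as Ifit1, Igtp and Stat2 did. Of the 17 with a smaller factor, 9 had a higher KO level at both times, as Isg15, Usp18, Irf7 and Irf9 did. Among 20 followed interferon-stimulated genes, the KO level was higher at 2 h in 20 and at 0 h in 17, and the gain in CPM was larger in KO in 20. Oasl1, of the oligoadenylate synthetase family, had 40.3 and 46.1 CPM in KO at 2 h, 0.822 and 1.12 in KO at 0 h, 0.740 and 0.716 in WT at 2 h and 0 and 0 in WT at 0 h. Ccl5, a chemokine gene, had 0.777 and 0.983 CPM in KO at 2 h, 0.0851 and 0.156 in KO at 0 h, 0.141 and 0 in WT at 2 h and 0.109 and 0.111 in WT at 0 h. Neither difference was called (adjusted p = 0.6278 and 0.0907), and without WT 2 h replicate 1 that of Ccl5 had an adjusted p of 0.0261. Over 14 alternatives the adjusted p of Ccl5 lay between 0.0261 and 0.2491.

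**Figure D3:**
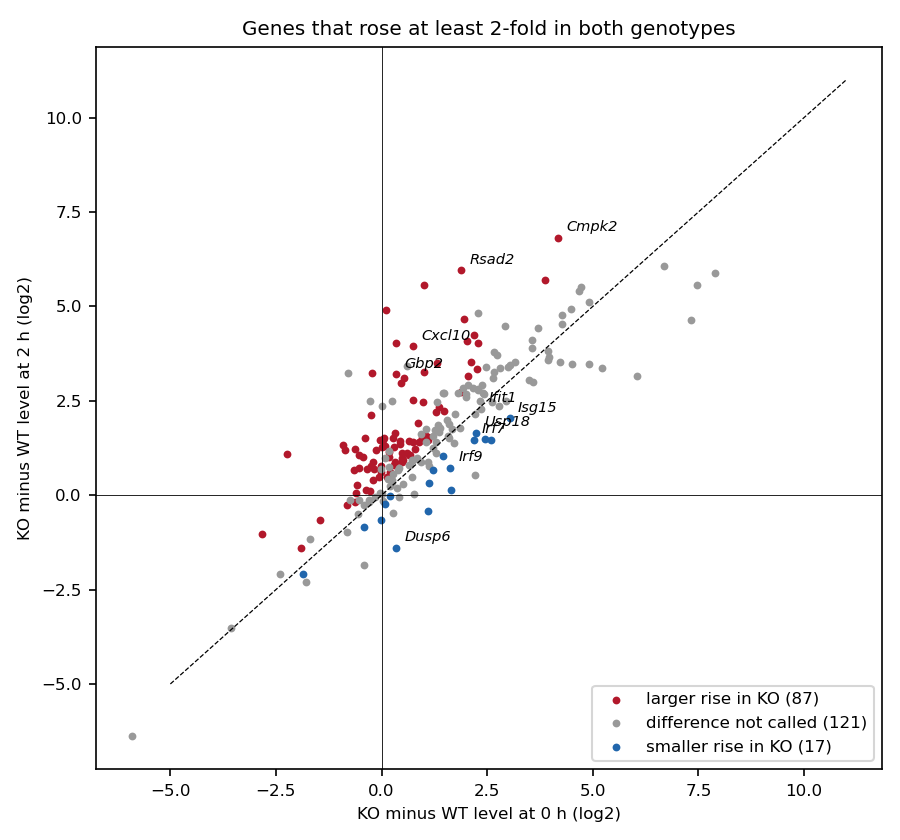
KO minus WT level on the log2 scale at 2 h (vertical axis) against that at 0 h (horizontal axis) for the 225 genes that rose at least 2-fold in both genotypes. The 87 genes with a larger rise in KO (red) lie above the dashed line of equal gaps, the 17 with a smaller rise (blue) below it and the 121 not called (grey) around it. Most points lie above the horizontal zero line, since the KO level at 2 h was called higher in 185 of the 225.

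The opposite pattern marked the MAP kinase feedback genes, which growth factor signalling through ERK induces and whose products shut it off. Of 16 tested, 8 had a smaller rise in KO, 1 a larger one (Dusp8, named after its value was seen), and the median difference was -0.62. KO levels were called higher in 9 and lower in 5 at 2 h (35.6% and 30.7% of all genes). At 0 h they were higher in 13 and lower in 1 (32.8% and 31.8% of all genes). The summed CPM at 2 h was 570.5 and 596.6 in KO and 543.7 and 554.7 in WT. At 0 h it was 415.7 and 430.1 in KO and 255.4 and 264.7 in WT. Dusp6, a cytoplasmic phosphatase of ERK, stood at 45.5 and 45.7 CPM in KO at 2 h, 21.1 and 20.9 in KO at 0 h, 121 and 118 in WT at 2 h and 16.5 and 16.7 in WT at 0 h. KO was slightly higher at 0 h and far lower at 2 h, and the gene rose 2.17-fold in KO against 7.21-fold in WT. The difference was -1.73 ± 0.081 (adjusted p = 1.9e-15).

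Spry2, an inhibitor of receptor tyrosine kinase signalling, had 28.8 and 29.2 CPM in KO at 2 h, 19.3 and 18.3 in KO at 0 h, 41.1 and 40.8 in WT at 2 h and 13.8 and 14.5 in WT at 0 h. Its levels crossed in the same way. The difference was -0.92 ± 0.097 (adjusted p = 4.4e-08). Dusp4, a nuclear phosphatase of ERK and JNK, had 104 and 94.7 CPM in KO at 2 h, 63.3 and 62.6 in KO at 0 h, 37.3 and 34.1 in WT at 2 h and 13.4 and 12.2 in WT at 0 h. Here KO was higher at both times and rose by the smaller factor. The difference was -0.82 ± 0.095 (adjusted p = 1.9e-07). Dusp2, also nuclear, had 3.86 and 4.04 CPM in KO at 2 h, 2.18 and 2.25 in KO at 0 h, 4.69 and 4.72 in WT at 2 h and 0.910 and 0.702 in WT at 0 h. Libraries of KO lay below those of WT at 2 h and above those of WT at 0 h, and the difference was -1.71 ± 0.27 (adjusted p = 3.9e-05). No ISRE core was found in the 13 promoters of this list, the printed Dusp6 sequence among them.

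Immediate early genes, which respond to a stimulus without new protein, were split. Of 26 tested, 8 were larger in KO and 5 smaller, and their median of 0.27 was 0.09 without WT 0 h replicate 2, 0.09 without both libraries low in Rn45s and Lars2 and 0.15 without WT 2 h replicate 1. The number of smaller ones was 3 with DESeq2, without KO 0 h replicate 1 and without KO 2 h replicate 2. Nr4a1, an orphan nuclear receptor, stood at 14.7 and 14.1 CPM in KO at 2 h, 8.62 and 9.20 in KO at 0 h, 62.4 and 55.3 in WT at 2 h and 20.2 and 17.5 in WT at 0 h. KO was below WT at both times, and the difference was -0.95 ± 0.12 (adjusted p = 5.8e-07). Egr3, a zinc finger factor, had 17.8 and 17.8 CPM in KO at 2 h, 6.18 and 4.59 in KO at 0 h, 14.98 and 17.7 in WT at 2 h and 2.26 and 1.22 in WT at 0 h. KO was higher at 0 h, and the levels at 2 h lay close together, with no call between genotypes (adjusted p = 0.3022). The difference was -1.51 ± 0.22 (adjusted p = 1.3e-05). Atf3, a stress factor, had 18.8 and 17.9 CPM in KO at 2 h, 5.19 and 6.02 in KO at 0 h, 8.35 and 7.46 in WT at 2 h and 6.66 and 7.36 in WT at 0 h. It was called higher at 2 h in KO but not in WT. The difference was 1.54 ± 0.17 (adjusted p = 7.2e-08). Myc, a growth-promoting transcription factor, and Gadd45b, a stress gene, had differences of 0.66 ± 0.080 and 1.03 ± 0.098 (adjusted p = 4.3e-07 and 5.6e-09).

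SRF and YAP targets, the contractile and matrix-linked genes of activated fibroblasts, showed a larger rise in KO in 12 of 23 members and a smaller one in none, with a median of 0.33. A smaller rise was called in 1 member without WT 0 h replicate 1, without KO 2 h replicate 1 and with a stricter filter on low counts. Here KO levels were the lower ones. At 0 h 20 of 23 were lower in KO (31.8% of all genes) and at 2 h 16 were (30.7% of all genes). Thbs1, a matricellular glycoprotein that activates TGF-beta, stood at 2004 and 1943 CPM in KO at 2 h, 294 and 306 in KO at 0 h, 2212 and 2227 in WT at 2 h and 1342 and 1334 in WT at 0 h. It was lower in KO at both times, by a much wider factor at 0 h. The difference was 1.99 ± 0.065 (adjusted p = 3.5e-19). Ctgf, a matricellular growth factor-binding protein, had 578 and 582 CPM in KO at 2 h, 88.9 and 92.8 in KO at 0 h, 467 and 493 in WT at 2 h and 142 and 132 in WT at 0 h. It was lower in KO at 0 h and higher at 2 h. The difference was 0.87 ± 0.065 (adjusted p = 4.7e-11). Cyr61, a related matrix protein, had 441 and 411 CPM in KO at 2 h, 145 and 137 in KO at 0 h, 378 and 384 in WT at 2 h and 213 and 223 in WT at 0 h. KO libraries lay above those of WT at 2 h and below those of WT at 0 h, and the difference was 0.79 ± 0.063 (adjusted p = 1.3e-10). Over all 901 positive differences, 134 were in genes with a lower KO level at both times and 105 in genes that were lower in KO at 0 h and not called at 2 h.

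**Figure D4:**
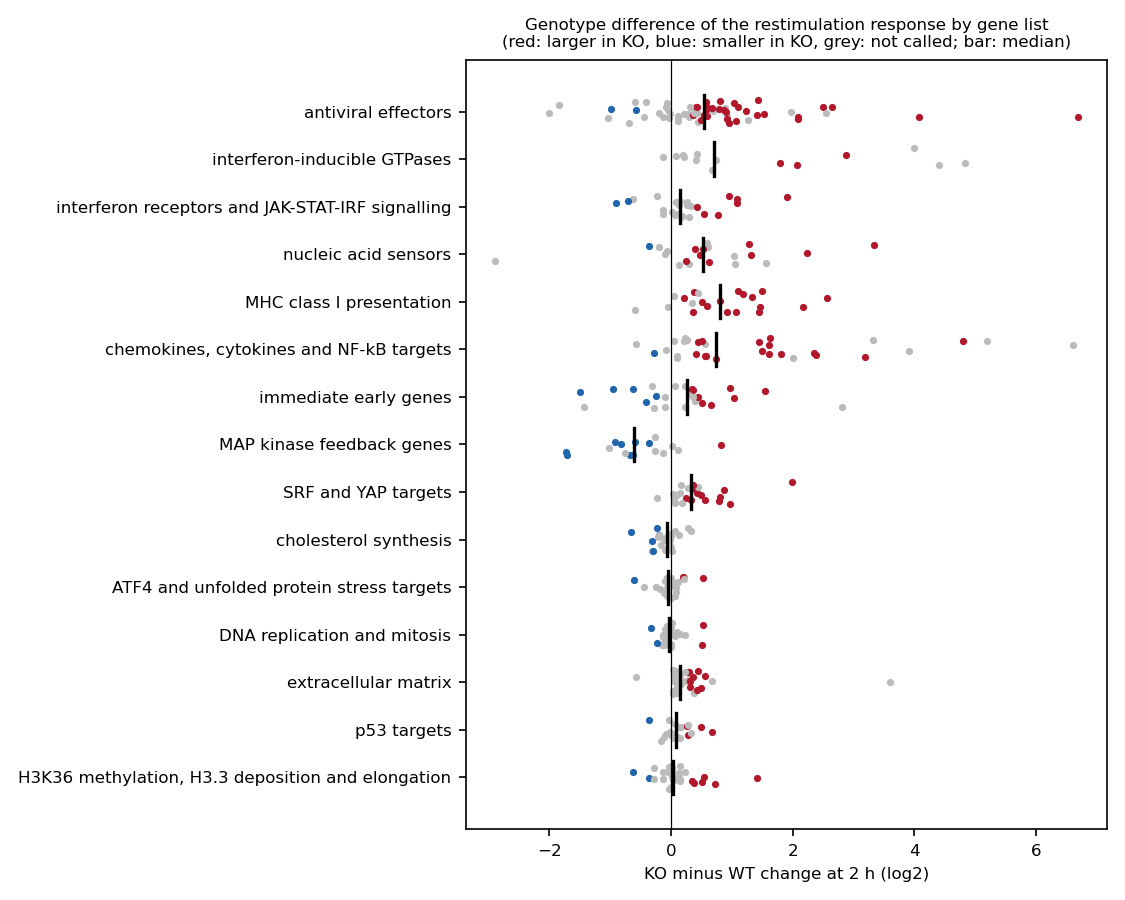
Genotype difference of the restimulation response (log2, horizontal axis) for each tested member of 15 gene lists, with a bar at the list median. Red points were called larger in KO, blue points smaller and grey points not called. The lists of antiviral, sensor, class I and chemokine genes lie mostly to the right of 0, the MAP kinase feedback genes to the left (median -0.62) and the replication genes around 0.

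Lists outside the interferon pathway followed. Extracellular matrix genes had 10 of 35 called larger in KO, none smaller and a median of 0.15, but 6 were called without WT 2 h replicate 1, 13 without WT 2 h replicate 2 (median 0.27) and 5 without WT 2 h replicate 1 and KO 0 h replicate 2 (median 0.089). Lox, a collagen cross-linking enzyme, had 564 and 549 CPM in KO at 2 h, 402 and 384 in KO at 0 h, 596 and 660.2 in WT at 2 h and 581 and 621 in WT at 0 h. The KO pairs were below the WT pairs at each time, and the difference was 0.44 ± 0.067 (adjusted p = 1.8e-05). Tnc, a glycoprotein of remodelling matrix, had a difference of 0.42 ± 0.066 and Col3a1, a fibrillar collagen chain, one of 0.56 ± 0.10 (adjusted p = 3.2e-05 and 2.6e-04).

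Cholesterol synthesis genes had 5 of 24 called smaller in KO, none larger and a median of -0.08. The 5 became 3 without WT 0 h replicate 2, WT 2 h replicate 1 or KO 0 h replicate 2, 8 without WT 2 h replicate 2 and 2 without both libraries low in Rn45s and Lars2. Insig1, which holds back the sterol-sensing factors, stood at 124 and 122 CPM in KO at 2 h, 192 and 199 in KO at 0 h, 131 and 116 in WT at 2 h and 123 and 126 in WT at 0 h. KO was the higher at 0 h, and its levels overlapped WT at 2 h. The difference was -0.66 ± 0.067 (adjusted p = 1.8e-08).

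The list of H3K36 methylation, H3.3 deposition and elongation genes includes the targeted gene. It had 6 of 30 larger in KO (6.53% of all genes), 2 smaller (2.51% of all genes) and a median of 0.03. Without both libraries low in Rn45s and Lars2, 1 was smaller, and the median was 0.063 without WT 2 h replicate 2, 0.049 without KO 0 h replicate 1 and -0.004 with Rn45s and Lars2 left out. Beside Daxx, the smallest p-values were those of the H3.3 chaperone subunit Cabin1, the histone chaperone Asf1a and Whsc1l1, the paralog of the targeted gene. Whsc1l1 stood at 90.5 and 92.7 CPM in KO at 2 h, 62.7 and 61.6 in KO at 0 h, 63.2 and 67.4 in WT at 2 h and 66.7 and 58.4 in WT at 0 h. It was alike in both genotypes at 0 h and rose in KO. The difference was 0.50 ± 0.085 (adjusted p = 9.4e-05). Asf1a had 38.4 and 39.7 CPM in KO at 2 h, 25.3 and 26.1 in KO at 0 h, 32.1 and 31.8 in WT at 2 h and 34.3 and 34.9 in WT at 0 h. The KO libraries lay above those of WT at 2 h and below those of WT at 0 h, and the difference was 0.72 ± 0.092 (adjusted p = 1.2e-06). Cabin1 had a difference of 0.54 ± 0.067 (adjusted p = 7.3e-07).

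Of 20 p53 targets, 4 were larger (6.53% of all genes) and 1 smaller (2.51% of all genes) in KO. The smaller one was Mdm2, the ubiquitin ligase of p53, with -0.36 ± 0.064 (adjusted p = 1.6e-04). Of 36 DNA replication and mitosis genes, 2 were larger and 2 smaller, and of 28 ATF4 and unfolded protein targets 2 and 1, near the shares over all genes. Edem1, 1 of the 2 larger ones of the last list, lost its call in 14 of 16 alternatives. In the replication list the helicase subunit gene Mcm6 had 436 and 429 CPM in KO at 2 h, 264 and 280.3 in KO at 0 h, 278 and 261 in WT at 2 h and 236 and 247 in WT at 0 h. Both KO pairs lay above the WT pairs of the same time, and the difference was 0.51 ± 0.062 (adjusted p = 4.1e-07). The 2 smaller ones, Cdt1 and Ccnb1, were both lost without WT 2 h replicate 1 and without KO 2 h replicate 2 (adjusted p between 0.0523 and 0.2010).

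The largest differences were in genes that were near 0 in WT cells or at 0 h. Gbp2b, a guanylate-binding protein gene close in sequence to Gbp2, had 114 and 114 CPM in KO at 2 h, 0.737 and 1.15 in KO at 0 h, 0.106 and 0.0421 in WT at 2 h and 0.182 and 0.185 in WT at 0 h. It rose in KO and stayed near 0 in WT. The difference was 8.13 ± 0.94 (adjusted p = 1.9e-07). Dll1, a Notch ligand, had 13.5 and 13.4 CPM in KO at 2 h, 0.369 and 0.437 in KO at 0 h, 0.247 and 0.169 in WT at 2 h and 0.291 and 0.185 in WT at 0 h. KO stood far above WT at 2 h. At 0 h the genotypes were not called different (adjusted p = 0.1569, 27 counts in KO and 13 in WT). The difference of the rise was 5.22 ± 0.67 (adjusted p = 1.2e-06). Mpeg1, a pore-forming protein known from macrophages, had 22.6 and 24.1 CPM in KO at 2 h, 1.48 and 2.03 in KO at 0 h, 0.634 and 0.337 in WT at 2 h and 0.692 and 0.518 in WT at 0 h. The KO pairs were above the WT pairs at each time, and the difference was 4.02 ± 0.45 (adjusted p = 1.3e-07). Of macrophage and blood markers, 6 or 7 of 13 were at 0 in each group and the summed CPM was 6.04 to 6.89 in KO and 15.8 to 20.3 in WT libraries. Serpina3g, a protease inhibitor, and Gm4841 had differences of 3.64 ± 0.64 and 3.45 ± 0.55 (adjusted p = 1.4e-04 and 4.1e-05). The other 5 of the 12 largest positive genes not yet described were Gm14446, Tmem229b, Ubd, Gm12250 and Tnip3, with differences between 3.65 and 4.57. Of these, Tnip3 kept its call in every alternative. Gm14446 lost its call without WT 0 h replicate 1 (3.59, adjusted p = 0.2509) and Tmem229b without WT 0 h replicate 2 (2.86, adjusted p = 0.2942). The adjusted p of Gm14446 ranged between 1.1e-10 and 0.2509 over 16 alternatives. For Tmem229b the adjusted p was between 6.4e-05 and 0.2942 over 16 alternatives. Ubd lost it in 4 alternatives, with differences of 2.89 to 3.46. These were without WT 0 h replicate 2, WT 2 h replicate 1, KO 0 h replicate 1, or both libraries low in Rn45s and Lars2. Gm12250 lost it in 7, with differences of 2.91 to 4.20. It did so without either WT or KO 0 h library and without both libraries low in Rn45s and Lars2. It also did so with a stricter filter on low counts (adjusted p = 0.0619) and with the 8 pretreated libraries alone (adjusted p = 0.0868).

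On the negative side, Pde4b, a phosphodiesterase that degrades cyclic AMP, stood at 2.23 and 2.147 CPM in KO at 2 h, 11.9 and 12.4 in KO at 0 h, 10.3 and 8.85 in WT at 2 h and 16.4 and 15.1 in WT at 0 h. It fell in both genotypes, further in KO. The difference was -1.76 ± 0.16 (adjusted p = 1.4e-09). Sema7a, a membrane-anchored semaphorin, had 27.5 and 28.6 CPM in KO at 2 h, 5.22 and 5.33 in KO at 0 h, 40.6 and 34.0 in WT at 2 h and 2.80 and 2.14 in WT at 0 h. KO was higher at 0 h and lower at 2 h. The difference was -1.51 ± 0.17 (adjusted p = 1.8e-07). Cd300lb, an immune receptor gene, had 4.66 and 4.59 CPM in KO at 2 h, 4.91 and 6.64 in KO at 0 h, 3.60 and 2.53 in WT at 2 h and 1.02 and 0.924 in WT at 0 h. At both times KO libraries lay above those of WT, and the difference was -1.98 ± 0.33 (adjusted p = 7.5e-05). Hgf, a growth factor for epithelium, had 26.4 and 28.1 CPM in KO at 2 h, 26.4 and 27.3 in KO at 0 h, 0.670 and 0.716 in WT at 2 h and 0.218 and 0.222 in WT at 0 h, so that it was near 0 in WT. Its difference was -1.61 ± 0.41 (adjusted p = 0.0084) and was lost without either WT 0 h library (adjusted p = 0.0569 and 0.0523). Over 16 alternatives the adjusted p of Hgf lay between 0.0066 and 0.0569. Pgf, placental growth factor, was at or under about 1 CPM in every library and lost its call without KO 2 h replicate 1 (-2.32, adjusted p = 0.0834) and without both libraries low in Rn45s and Lars2 (adjusted p = 0.0582). The adjusted p of Pgf ranged between 0.0043 and 0.0834 over 15 alternatives. Cers3, Gm13242, Sh2d1b1 and Gdf5, the remaining 4 of the 12, were each called narrowly and lost their calls in 9 or 10 alternatives, with adjusted p up to 0.2549, 0.3647, 0.2103 and 0.2261.

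In 5 called genes a group held 3 or fewer counts, and a fitted difference is then no measure of size. B3gnt5, a glycosyltransferase, had 812 counts in KO at 2 h and 0 in WT at 2 h, which is at least 205-fold higher in KO, taking 3 counts over the group as the floor. In KO it rose 4.28-fold. Epsti1, an interferon-induced gene, had 68 counts in KO at 2 h and 0 in KO at 0 h, at least 22.2-fold higher at 2 h, and 14 counts in WT at 2 h against 6 in WT at 0 h. Clic5, of the chloride intracellular channel family, had 122 and 2 counts in KO at 2 h and 0 h, a ratio of 59.8 with a 95% counting interval of 16.2 to 499. In WT it had 46 and 20 counts, a ratio of 2.41, and at 2 h KO stood 2.01-fold above WT. Slfn4, of the Schlafen family, had 114 and 2 counts in KO, a ratio of 55.9 with an interval of 15.1 to 467. In WT it had 76 and 45 counts, a ratio of 1.77, and at 2 h KO stood 1.14-fold above WT. Sis, an intestinal disaccharidase, had 13 counts in KO at 2 h and 0 in KO at 0 h. In WT it had 38 counts at 2 h and 42 at 0 h, and its KO level at 2 h was 0.26 of the WT level. Clic5, Slfn4 and Sis were each called lower in KO than in WT at 0 h, so their differences include a low KO level before the second exposure. Epsti1, B3gnt5 and Sis lost their calls in 4 to 9 alternatives, among them leaving out either KO 0 h library.

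The genotype difference of the first response, in naive cells, was set beside that of the second. The naive value uses 1 library for KO at 2 h, which was assumed to vary as the other groups do, and shares no library with the pretreated value. In naive WT 0 h replicate 1, Rn45s and Lars2 took 10.6% of the counts, against 25.7% in its replicate. In naive cells 2113 genes (15.3%) were called, 1167 positive (8.46%) and 946 negative (6.85%). Without that library 1814 were called, 990 positive and 824 negative, and the count was between 1596 and 1945 with any 1 of the 6 naive libraries of the replicated groups left out. Of the 901 genes positive in pretreated cells, 562 were also called positive in naive cells, 14 negative and 325 were not called. Of the 346 negative ones, 225 were also called negative, 7 positive and 114 were not called.

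The difference between the 2 differences was tested directly and called in 323 genes (2.34%), 191 with the higher value in pretreated cells (1.38%) and 132 with the lower (0.956%). It was at least 2-fold in 9 of the higher and 70 of the lower ones. Without KO 0 h replicate 2, 192 genes were called, 89 higher and 103 lower. Without KO 2 h replicate 1 the count was 207, 104 higher and 103 lower, and without both libraries low in Rn45s and Lars2 it was 185, 78 higher and 107 lower. Among naive libraries, leaving out KO 0 h replicate 2 gave 202, WT 2 h replicate 2 211, WT 0 h replicate 2 215 and WT 0 h replicate 1 325. Among antiviral effectors, 37 of 61 had a lower value in pretreated cells and none a higher one, with between 32 and 40 lower when any 1 library was left out and a median genotype difference of 0.54 in pretreated and 2.12 in naive cells. For the GTPases 8 of 14 were lower and none higher, with medians of 0.70 in pretreated and 5.31 in naive cells. Of these 14, 4 had 3 or fewer counts in a pretreated group, and without them the pretreated median was 0.55. A naive median without genes near 0 was not computed, so the 2 medians are not a measured size of the contrast. MAP kinase feedback genes differed in the other direction, with 5 of 16 higher and none lower (1 to 4 higher with 1 library left out, the 1 being without naive WT 2 h replicate 1), and medians of -0.62 in pretreated and -0.67 in naive cells. Ctgf had a genotype difference of 0.87 ± 0.065 in pretreated and -0.43 in naive cells, and the test between them gave an adjusted p of 2.8e-10.

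**Figure D5:**
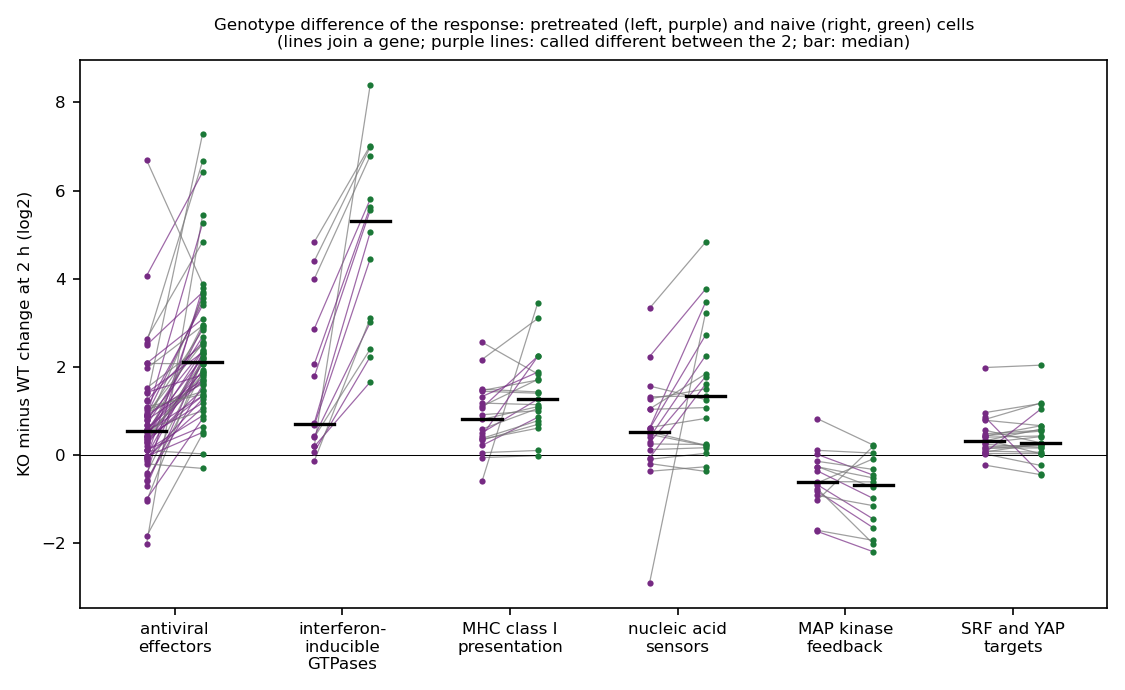
Genotype difference of the 2 h response (log2, vertical axis) in pretreated cells (purple, left of each pair) and naive cells (green, right) for the tested members of 6 gene lists, with a line joining each gene, purple where the 2 values were called different, and a bar at the median. In the antiviral list the median is 0.54 in pretreated and 2.12 in naive cells, and in the GTPase list 0.70 and 5.31. The GTPase list includes 4 genes with 3 or fewer counts in a pretreated group, and its pretreated median was 0.55 without them. The SRF and YAP list has like medians, 0.33 in pretreated and 0.28 in naive cells.

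Markers of other cell types were low beside those of fibroblasts, but several of their sums differed between the genotypes. A sum can be carried by 1 abundant member. Beside the counts of called markers below, 35.6% of all genes were higher and 30.7% lower in KO at 2 h. At 0 h the shares over all genes were 32.8% higher and 31.8% lower. With so few markers tested per list, these counts cannot be told from those shares. Cartilage and bone markers summed to 296 to 400 CPM in KO and 43.7 to 71.4 in WT libraries, higher at 2 h than at 0 h in each genotype. There were 2 of 10 at 0 in each KO group and 4 or 5 in each WT group. Only 4 were tested, with 1 higher and 1 lower in KO at 2 h, and 2 higher and none lower at 0 h. Nerve and glia markers summed to 56.3 to 67.5 CPM in KO and 24.3 to 30.4 in WT. Of 4 tested, 2 were higher and 1 lower in KO at 2 h, and 2 higher and 2 lower at 0 h. Adipocyte markers summed to 18.9 to 24.98 in KO and 3.57 to 4.47 in WT, and the 4 tested were higher in KO at both times. Skeletal muscle markers summed to 4.09 to 8.57 in KO and 1.14 to 1.33 in WT. Of 2 tested, 2 were higher in KO at 2 h and 1 at 0 h. The endothelial and epithelial lists summed to between 1.77 and 3.24 CPM in every library. In these bulk libraries fewer cells of a type and less RNA per cell cannot be told apart, and the part of other cells in the differences above was not tested.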

How the data were processed

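Fibroblast RNA was isolated with TRIzol, converted to libraries by the NuGEN Ovation SP Ultralow kit and read as pairs on a HiSeq2000, per the labels' protocols. Per the submitters' processing notes, the tools were bcl2fastq 2.15, STAR 2.5.2b and HTSeq, and the build was mm9. The deposited values are raw counts per gene symbol for 24015 genes in each library. No annotation, strand setting or filter is named in these sources, so overlapping, antisense and near-identical genes are uncertain. Groups were taken from the labels.

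HTSeq's 5 summary lines entered neither library sizes nor tests. In the pretreated libraries, reads in no gene were 35.1% to 40.4% and ambiguous reads 0.399% to 0.487% of the sum of gene counts and these 2 kinds. Replicates of each group differed by more than sampling noise (chi-square over its degrees of freedom 3.55 to 4.81 in pretreated groups, with Rn45s and Lars2 left out). Library sizes were adjusted with TMM factors of 0.895 to 1.22 over the 15 libraries. The 13802 genes that filterByExpr kept (minimum count 10) were fitted with glmQLFit of edgeR 4.0.16 in R 4.3.3, using the 15 libraries and their 8 group means, which leaves 7 residual degrees of freedom. Contrasts were tested with glmQLFTest and called at a Benjamini-Hochberg adjusted p under 0.05. Alternatives were other size factors, other filters, DESeq2 1.42.0, a replicate block, Rn45s and Lars2 left out, the 8 pretreated libraries alone, and each pretreated library left out in turn. The removal of the 2 pretreated libraries low in Rn45s and Lars2, and of each naive library of the groups with 2, was chosen after seeing the data. Figures were drawn with matplotlib 3.10.9.

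The members, gene lists and tests were chosen with earlier results of these data known. Genes were named by a rule: Whsc1, the 12 largest positive and 12 largest negative differences among called and separated genes with more than 3 counts in each pretreated group, up to 6 called genes with 3 or fewer counts in a group, up to 4 genes per list with the smallest p, and 20 followed interferon-stimulated genes. Genes named outside it were chosen after their values were seen. Promoters came from a RefSeq table of GRCm38.p6. No mm9 genome was used here. A few genes that the rule names are not reported here.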

Additional observations from a re-analysis of the deposited data

Results flagged for a closer look

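The genotype difference of the 2 h response was not the same in pretreated and naive cells, by a test of the difference itself (edgeR's quasi-likelihood test, 323 genes called). Among the 20 followed interferon-stimulated genes, 14 were called, and in each of the 14 the KO minus WT difference was lower in pretreated than in naive cells. On the log2 scale the pretreated minus naive value was -3.71 for Ifit1, -3.53 for Cxcl10, -2.94 for Gbp2, -2.58 for Igtp and -2.56 for Ifit3. It was -2.34 for Rsad2, -2.16 for Usp18, -2.01 for Irf7 and -1.82 for Isg15. It was -1.20 for Ifit2, -1.20 for Stat2, -1.18 for Tap1 and -0.77 for Irf1. These values rest on 1 library of naive KO cells at 2 h. Over 21 alternatives, 10 of the 14 were called in each. Isg15 lost its call in 9 (adjusted p up to 0.1628), without WT pretreated 0 h replicate 1, KO pretreated 0 h replicate 2, KO pretreated 2 h replicate 1, both pretreated libraries low in Rn45s and Lars2, either naive KO 0 h library, naive WT 2 h replicate 2 or either naive WT 0 h library. Rsad2 lost it in 5 (adjusted p up to 0.1692), without WT pretreated 0 h replicate 2, KO pretreated 0 h replicate 2, naive KO 0 h replicate 2, naive WT 2 h replicate 1 or naive WT 0 h replicate 2. Usp18 lost it without either naive WT 0 h library (adjusted p up to 0.1003). Irf7 lost it without naive WT 0 h replicate 1 (adjusted p up to 0.2507), the library in which Rn45s and Lars2 took 10.6% of the counts.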

How the results depend on the processing

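The count of 1247 genes stayed within 1.5 times under every alternative but 1 (908 with DESeq2, 1397 with the replicate block, 933 to 1255 with 1 library left out). The exception was 741 without both libraries low in Rn45s and Lars2. The count of 323 genes for the pretreated minus naive difference was 595 with the replicate block, 185 without those 2 libraries and 192 to 378 with 1 library left out, naive libraries included. The other 4 comparisons stayed within 1.5 times of their total counts. Replicate numbers did not pair the samples (correlations of same-numbered deviations -0.018 to 0.064), and the block is given for completeness. Of 100 named genes in the fits, 89 were called and 66 of these kept their call in every alternative, 23 lost it in at least 1, and 7 of the 11 without a call gained one in at least 1. The direction turned in 2 uncalled genes. With 1 library left out, Whsc1 ran between -0.142 and 0.023 (positive without WT 0 h replicate 2) and Ifit1 between -0.247 and 0.160 (positive without WT 2 h replicate 2, and 0.020 without KO 0 h replicate 2). The cause was not tested. With 2 libraries a group, genes near 0 in a group rest on few counts.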

Other observations

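The level of the class I heavy chain gene H2-K1, chosen after its values were seen, separated the genotypes at both times. It had 96.2 and 93.7 CPM in KO at 2 h, 27.1 and 27.2 in KO at 0 h, 0.564 and 0.759 in WT at 2 h and 0.364 and 0.666 in WT at 0 h. The KO libraries exceeded all WT libraries, and the genotype difference of its restimulation response was 1.47 ± 0.36 (edgeR's quasi-likelihood test, adjusted p = 0.0057). Nlrc5, the activator of class I genes, also had higher KO levels at both times, with 107 and 106 CPM in KO at 2 h, 14.2 and 13.9 in KO at 0 h, 3.45 and 3.58 in WT at 2 h and 0.692 and 0.555 in WT at 0 h, and its difference of 0.44 ± 0.25 was not called (adjusted p = 0.4360). H2 genes are near-identical and polymorphic, so the level of a single H2 gene is uncertain.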
